A study of Ovis aries with 12 samples.

Results

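The miRNA of the left ventricle of 3 lambs at 173 days after birth (P173) were set against those of 3 fetuses at 91 days of gestation (F91), the widest span of age in the series. The comparison used 6 of 12 arrays and all 3091 probes of the deposited table that were not controls, without a choice by level. The 3 P173 animals were untreated Merino singletons and all female. The 3 F91 animals were untreated Merino singletons too, of which replicate 3 was male and the other two were female. The labels put the fetuses at 91 days in their titles and at 90 days in their stage field, and the lambs at 173 days in both. The other 6 arrays, 3 at 141 days of gestation (F140) and 3 at 5 days after birth (P5), entered the fit for their spread and are described last. One of the F140 and all 3 of the P5 animals were twins. P5 replicates 1 and 2 share a number in their array names and differ in a letter. Whether they were litter-mates is not known here, and the fit counted them as independent. The study chose the fetal age because all heart muscle cells (cardiomyocytes) are then mononucleated and able to divide, and the postnatal age because most are then quiescent and grow by hypertrophy. Each array held RNA from 1 animal, taken from the free wall of the ventricle, so every value is a mean over muscle, vessel, connective tissue and blood. In such bulk samples, fewer cells of a type and less RNA per cell cannot be told apart.

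miRNA are short RNA cut from hairpin transcripts by the enzymes Drosha and Dicer. They guide the Argonaute protein to mRNA, mainly through the pairing of bases 2 to 8 of the miRNA, which are called the seed, and the mRNA is then translated less or degraded. miRNA with the same seed form a family, because they can reach overlapping sets of mRNA, and either arm of a hairpin (5p or 3p) can give a mature miRNA. In heart muscle, miR-1, miR-133 and the miRNA encoded within myosin genes (miR-208a, miR-208b and miR-499) are the best known.

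The target sequences of the probes on which the results turn are shown here in the array's own annotation, with the seed in capitals. The first set holds rises, in 3 miRNA with 1 seed and in both arms of miR-22.
miR-29a: uAGCACCAucugaaaucgguu
miR-29b: uAGCACCAuuugaaaucagugu
miR-29d variant: uAGCACCAuuugaaaucgguuaaa
miR-22-3p: aAGCUGCCaguugaagaacug
miR-22-5p: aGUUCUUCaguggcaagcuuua

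The second set shares a seed and yet moved both ways.
miR-15b: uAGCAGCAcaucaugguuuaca
miR-16b: uAGCAGCAcguaaauauugg
miR-195 variant: uAGCAGCAcagaaauguugg
miR-497: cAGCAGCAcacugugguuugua

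The third set is from the chromosome 18 cluster, from miR-493 at one end of the list to miR-487b, and holds large falls. miR-379-3p and miR-411a-3p have the same seed.
miR-493-5p: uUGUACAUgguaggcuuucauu
miR-127: aUCGGAUCcgucugagcuuggcu
miR-432: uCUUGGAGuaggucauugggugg
miR-379-3p: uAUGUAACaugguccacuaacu
miR-411a-3p: uAUGUAACacgguccacuaac
miR-380-3p: uAUGUAAUgugguccacgucu
miR-487b-3p: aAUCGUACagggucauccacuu

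The fourth set holds other falls, with relatives that were not called (miR-99a, let-7c, miR-125b and miR-17) for comparison.
miR-214: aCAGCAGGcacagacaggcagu
miR-181a: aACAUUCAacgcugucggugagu
miR-181b: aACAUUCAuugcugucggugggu
miR-181c: aACAUUCAaccugucggugaguuu
miR-99b: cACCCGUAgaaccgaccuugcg
miR-99a: aACCCGUAgauccgaucuug
let-7e: uGAGGUAGgagguuguauagu
let-7c: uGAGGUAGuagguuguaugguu
miR-125a: uCCCUGAGacccuuuaaccugug
miR-125b: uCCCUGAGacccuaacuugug
miR-92a: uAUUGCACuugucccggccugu
miR-25-3p: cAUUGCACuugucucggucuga
miR-93: cAAAGUGCuguucgugcaggua
miR-17: cAAAGUGCuuacagugcaggua

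Between P173 and F91, 100 probes were higher and 109 were lower, which is 3.24 % and 3.53 % of the 3091 tested (6.76 % together). A probe was called at an adjusted p of at most 0.05 (limma on log2(value + 0.1), Benjamini-Hochberg over all 3091 probes), and every adjusted p below is from this fit. Values are the authors' normalised intensities in arbitrary units. The fitted folds were 1.92 to 23.8 for the rises (median 4.55) and 2.15 to 46.6 for the falls (median 4.19), where both ages were above background. Single arrays near 0 set the upper ends: among the 49 rises and 80 falls whose fold moved by no more than 1.5 times when any 1 array was left out, the folds were 1.92 to 12.4 and 2.15 to 39.7. An age was taken as not above background where all 3 of its arrays read under 32 units, and a fold against it is then computed against 32 units and given as "at least". This held at 1 age or both for 34 of the higher and 27 of the lower probes, and for 1881 of all 3091 at both ages. Of the 812 probes whose mean reached 100 units at 1 age or both, 20.2 % were called (9.48 % higher and 10.7 % lower). The median log2 change was 0.01 over all probes and 0.25 over these 812.

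**Figure D1:**
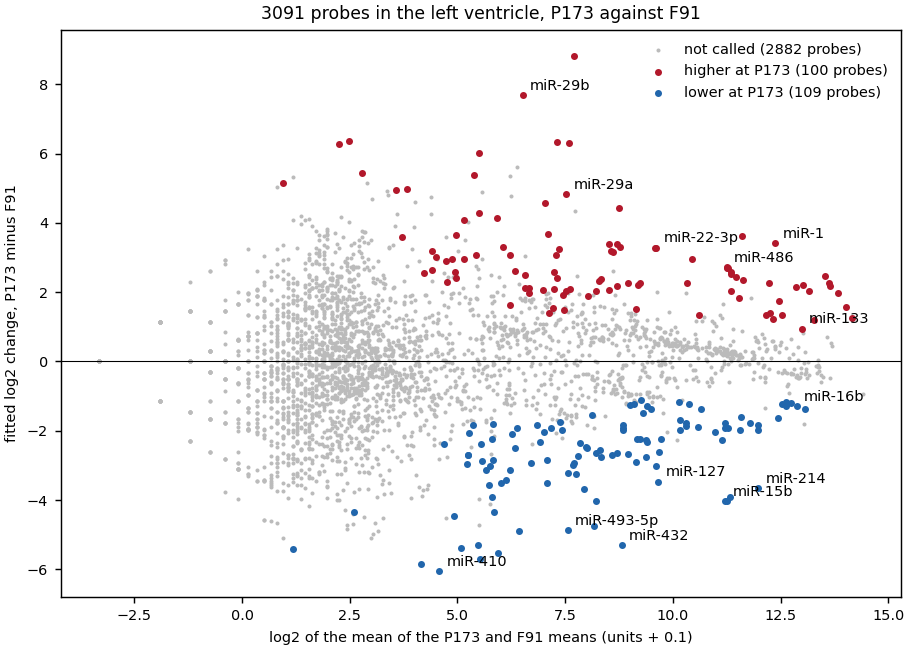
Fitted log2 change (P173 minus F91, vertical axis) against the log2 of the mean of both age means (horizontal axis) for 3091 probes, with the 100 higher probes in red, the 109 lower ones in blue and the rest in grey. Calls were spread over the whole range of levels above background, with miR-29b near the top, miR-432 among the lowest and the abundant miR-1 and miR-214 to the right.

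The balance of rises and falls rested on how the arrays were scaled. When each array was scaled on its spike-in controls, an alternative added after the data were seen, the median of all probes moved to 0.79 and the same test gave 132 higher and 27 lower probes, so that 83.0 % of the calls were rises, against 47.8 % in the deposited scaling. The mean log2 of the spikes was 9.63 ± 0.94 at P173 and 10.4 ± 0.15 at F91 (SD, n = 3 each). The P173 arrays stood at 8.665, 10.543 and 9.672 and the F91 arrays at 10.304, 10.569 and 10.33. An exact permutation test (two-sided, p = 0.3) cannot judge this difference, since its smallest possible p with 3 arrays an age is 0.1. Changes below are therefore relative to the bulk of the probes on an array. No called probe changed its direction under this scaling, but many falls lost their call, and these losses are given beside the values. The dimmest scans were P173 replicate 2 among the lambs and F91 replicate 3 among the fetuses. The 90th percentile of scanner intensity was 2002, 697 and 1463 at P173 and 821, 555 and 329 at F91. The F91 scans were thus the dimmer as a group, and leaving out the dimmest array of each age does not remove this difference.

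Among the 15 largest rises were both arms of miR-22, the miR-29 family, miR-486, miR-10b and miR-1. Of the 15 largest falls, 13 were entries of 1 cluster on chromosome 18, beside miR-15b and miR-214. This cluster has 109 mature arms with a probe, where 3091 probes were tested in all. The 15 on each side were taken by size among named probes that passed the test, averaged 100 units or more at 1 age and did not overlap between ages, with probes that share 18 bases counted once. This rule left 45 entries that rose and 56 that fell. Probes of 1 miRNA that share fewer bases stayed apart. miR-154b thus fills ranks 6 and 9 of the falls, and miR-22-5p fills ranks 4 and 7 of the rises. In all, the arrays of the 2 ages did not overlap for 570 of the 3091 probes (18.4 %), with all P173 arrays above in 9.67 % and below in 8.77 %.

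**Figure D2:**
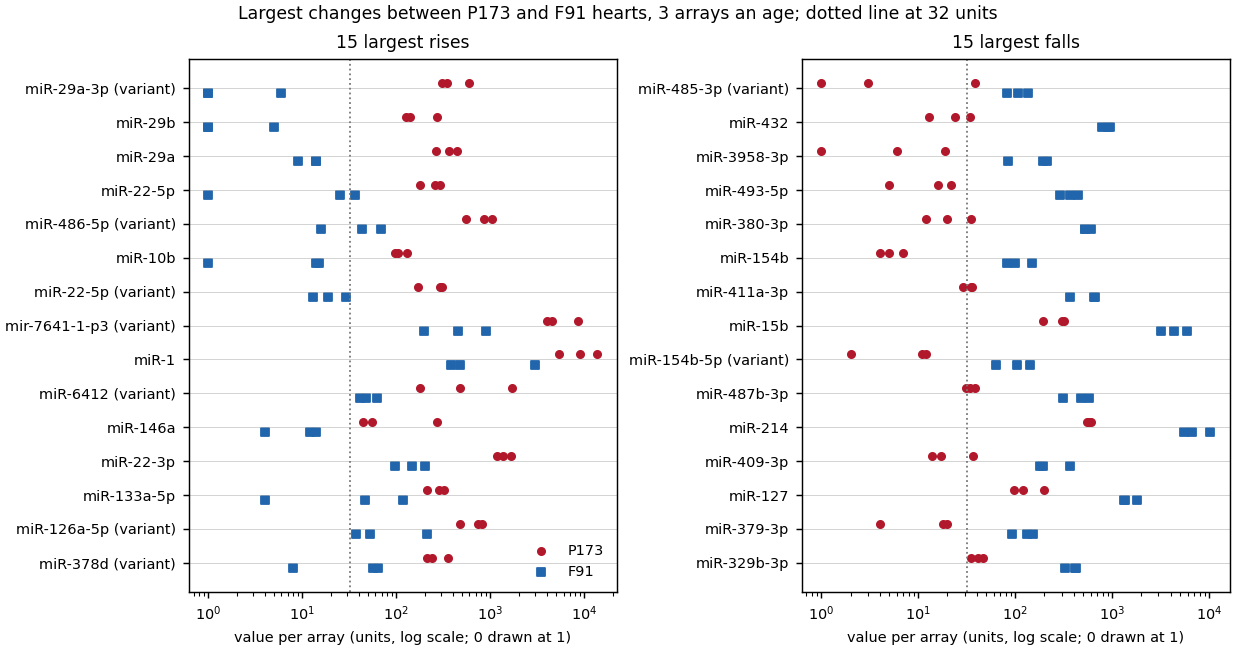
Value on each array (units, log axis, 0 drawn at 1) of the 15 largest rises and the 15 largest falls, with P173 in red circles and F91 in blue squares, 3 arrays an age. The dotted line marks 32 units, and in every row the arrays of P173 and F91 stood apart.

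miR-29 had the largest median rise of the miRNA lists examined. In mice and rats its members bind the mRNA of collagens and other matrix proteins. miR-29a read 437, 262 and 366 units at P173 and 14, 9 and 14 units at F91. miR-29b read 273, 127 and 140 units at P173 and 0, 5 and 1 units at F91. The miR-29d variant read 495, 338 and 295 units at P173 and 1, 9 and 10 units at F91. All 3 measured members of the list (miR-29c had no probe) were thus plain to see in every lamb heart and not above background in any fetal heart. The folds were at least 10.9 for miR-29a (log2 change 4.83 ± 0.53 SE, adjusted p = 6.87e-05), at least 5.29 for miR-29b (7.68 ± 1.30, adjusted p = 0.00172) and at least 11.5 for the miR-29d variant (6.30 ± 0.72, adjusted p = 8.21e-05). The median log2 change of the 3 was 6.30, and 3.44 with all values under 32 units set to 32. Of the 10 probes with the seed AGCACCA, 7 were higher and none was lower. The sequences shown above are much alike, so that these probes may share targets. The opposite arm, miR-29d-5p, read 95, 62 and 76 units at P173 and 0, 6 and 10 units at F91 (adjusted p = 0.0229), and its call was lost without P173 replicate 1, 2 or 3 (adjusted p = 0.101, 0.0714 and 0.0615).

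Both arms of miR-22, which is abundant in heart muscle and is needed for hypertrophic growth of the heart under load in mice, rose. miR-22-3p read 1370, 1677 and 1186 units at P173 and 204, 148 and 97 units at F91, a 9.76-fold rise (log2 change 3.29 ± 0.35 SE, adjusted p = 5.41e-05). miR-22-5p read 256, 178 and 293 units at P173 and 25, 36 and 1 units at F91 (23.8-fold, log2 change 4.57 ± 0.95 SE, adjusted p = 0.00761). The size of the miR-22-5p rise rested on single fetal arrays, with 7.88-fold without F91 replicate 3, 37.7-fold without F91 replicate 1 and 45.2-fold without F91 replicate 2, and its call held each time. The lowest lamb value exceeded the highest fetal value at both arms. A second miR-22-5p probe that differs by 1 base gave a log2 change of 3.67 (adjusted p = 0.000107).

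Of the 7 muscle miRNA, 3 rose, 1 was high at both ages and 3 were not above background at either age. miR-1 read 13643, 5333 and 9061 units at P173 and 2992, 480 and 384 units at F91 (10.6-fold, log2 change 3.41 ± 0.68 SE, adjusted p = 0.00587). miR-133, which is cut from the same transcripts as miR-1, read 10189, 11668 and 9827 units at P173 and 4241, 7963 and 4854 units at F91 (1.92-fold, adjusted p = 0.0375). miR-499, from an intron of the myosin gene MYH7B, read 5610, 2493 and 4427 units at P173 and 2360, 456 and 274 units at F91 (5.94-fold, adjusted p = 0.0325). The lamb values lay above the fetal ones for all 3, but F91 replicate 1 was far above its group for miR-1 and miR-499. Without it the folds were 20.3 for miR-1 and 11.2 for miR-499, and without F91 replicate 3 that of miR-499 was 3.81. miR-133b was 1.46-fold higher without a call (adjusted p = 0.201), and the skeletal muscle miRNA miR-206 was at 0 to 7 units on all 6 arrays. The summed level of the 7 was 37068 to 43685 units at P173 and 16635 to 20461 units at F91.

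The call of miR-1 held without each of the 12 arrays in turn. The call of miR-133 was lost in 11 of 12 omissions, all but F91 replicate 2 (highest adjusted p = 0.116, without P173 replicate 2). That of miR-499 was lost in 7, which were F91 replicates 2 and 3, F140 replicate 2, P5 replicate 1 and all 3 P173 replicates (highest adjusted p = 0.156, without P173 replicate 1). A close variant, the platypus form miR-133c, read 4493, 4818 and 4292 units at P173 and 1094, 2167 and 845 units at F91 (3.59-fold, adjusted p = 0.00458), and kept its call in all 12 omissions. With arrays scaled on the spikes, miR-133 had an adjusted p of 0.0608.

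The opposite arms of the miR-133a and miR-1 hairpins were also higher. miR-133a-5p read 321, 282 and 213 units at P173 and 47, 118 and 4 units at F91 (9.46-fold, adjusted p = 0.0374). Its fold was 3.60 without F91 replicate 3 and 19.3 without F91 replicate 2. All 4 probes with the seed of miR-1-5p, CAUACUU, were higher, although they were dim, at 8 to 47 units at P173 and 0 to 12 units at F91. None of the 4 was called without P173 replicate 1 (adjusted p = 0.125 to 0.164), and 1 to 3 of them were called when another array of the 2 ages was left out. The call of miR-133a-5p was lost in 7 of 12 omissions, which were F140 replicate 2, the 3 P5 replicates and the 3 P173 replicates (highest adjusted p = 0.147, without P173 replicate 1).

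The miRNA of the slow myosin gene MYH7, miR-208b, was not above background on its exact probe, at 5, 20 and 13 units at P173 and 2, 0 and 5 units at F91. A shorter variant probe read 136, 40 and 84 units at P173 and 8, 0 and 2 units at F91 (at least 2.41-fold, adjusted p = 0.00587). miR-208a, from the fast myosin gene MYH6, stayed at 7 units or less on all 6 arrays.

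Among miRNA of blood cells, miR-486 and miR-150 rose and miR-155 fell. miR-486, which lies in the ankyrin gene ANK1 and is abundant in red cells and in muscle, read 2917, 4924 and 4889 units at P173 and 649, 596 and 623 units at F91 (6.63-fold, log2 change 2.73 ± 0.26 SE, adjusted p = 2.13e-05). The red cell miRNA miR-451 read 1901, 140 and 1956 units at P173 and 1474, 373 and 146 units at F91, so that the ages overlapped (adjusted p = 0.692), and miR-144 was at 0 to 5 units on the 6 arrays. A variant probe of miR-451 (bta-miR-451_L-5R-1) was called higher, at 4.5-fold. It lost its call in 8 of 12 omissions (highest adjusted p = 0.158, without P173 replicate 3). The 3 red cell members summed to 4818 to 6850 units at P173, most of it miR-486, and 769 to 2123 units at F91. The part of red cells in the rise of miR-486 was not tested.

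miR-150, a miRNA of mature lymphocytes, read 297, 286 and 291 units at P173 and 62, 60 and 98 units at F91 (4.07-fold, adjusted p = 0.00361). miR-146a, which NF-kB induces, read 272, 44 and 55 units at P173 and 14, 4 and 12 units at F91 (at least 2.72-fold, adjusted p = 0.0249). miR-155, of activated lymphocytes and macrophages, read 54, 36 and 60 units at P173 and 248, 169 and 123 units at F91 (a fall of 3.53-fold, adjusted p = 0.0195). The other 3 white cell members, both arms of miR-142 and the myeloid miR-223, were at 25 units or less on the 6 arrays, and the 6 summed to 398 to 653 units at P173 and 237 to 345 units at F91. The call of miR-146a was lost without F91 replicate 2 (adjusted p = 0.104) or P173 replicate 1 (0.142, at least 1.54-fold), and that of miR-155 without F91 replicate 1 (0.0509), F91 replicate 2 (0.0548) or P173 replicate 2 (0.0745), and under the spike scaling (0.419).

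The miR-193 pair rose, and miR-365 did not pass. miR-193b read 356, 648 and 560 units at P173 and 98, 100 and 105 units at F91 (5.00-fold, log2 change 2.32 ± 0.34 SE, adjusted p = 0.000629). miR-193a read 44, 83 and 94 units at P173 and 25, 11 and 2 units at F91 (at least 2.19-fold, adjusted p = 0.0276). All 3 probes with their seed, ACUGGCC, were higher, but only 1 was without F91 replicate 2, P173 replicate 2 or P173 replicate 3. miR-365, which is cut from the same transcripts, read 254, 155 and 537 units at P173 and 77, 92 and 93 units at F91 (3.18-fold, adjusted p = 0.0595), and was called without F140 replicate 1 (0.0478) or P173 replicate 2 (0.0301) and under the spike scaling (0.0389). The call of miR-193a was lost without F91 replicate 2 (adjusted p = 0.0571), F91 replicate 3 (0.0674) or P173 replicate 1 (0.0506), 2 (0.097) or 3 (0.0919).

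Several miRNA that were not above background at F91 were above it at P173. miR-10b, which lies among the HOXD genes, read 131, 104 and 97 units at P173 and 14, 1 and 15 units at F91 (at least 3.43-fold, adjusted p = 0.00587). miR-34a, a miRNA that p53 induces, read 80, 32 and 58 units at P173 and 6, 11 and 1 units at F91 (at least 1.66-fold, adjusted p = 0.0104), and its call was lost without P173 replicate 1 (0.0648). miR-101, a repressor of the histone methyltransferase EZH2, read 56, 48 and 34 units at P173 and 10, 10 and 2 units at F91 (at least 1.41-fold, adjusted p = 0.0262), and its call was lost without F91 replicate 3 (0.0821) or P173 replicate 1 (0.112) or 2 (0.0806). The bounds for miR-34a and miR-101 are low because both were dim at P173 too. miR-34b, miR-34c, miR-196a and miR-196b were at 9 units or less on all 6 arrays.

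In the miR-23/27/24 clusters, 2 of 5 members rose and the other 3 had higher means at P173 without a call. miR-24 read 6332, 6935 and 6385 units at P173 and 2956, 3139 and 1888 units at F91 (2.52-fold, log2 change 1.33 ± 0.25 SE, adjusted p = 0.00409). miR-27b read 2718, 1870 and 2079 units at P173 and 1214, 855 and 612 units at F91 (2.55-fold, adjusted p = 0.0276), and its call was lost without F91 replicate 2 (0.0771) or 3 (0.108) or P173 replicate 1 (0.13), 2 (0.052) or 3 (0.0626). miR-23a and miR-23b were 1.38-fold and 1.35-fold higher (adjusted p = 0.306 and 0.344).

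In the miRNA cluster of chromosome 18, 21 mature arms fell and none rose. This imprinted region, between the genes DLK1 and DIO3, gives its miRNA from the maternal chromosome in placental mammals, and some of them, such as miR-127 and miR-432, lie opposite the gene RTL1 on the other strand. The RefSeq annotation of the sheep assembly ARS-UI_Ramb_v3.0, used here for names and order only, lists 55 miRNA hairpins on this chromosome, and all 55 had a probe. The 21 were of 109 arms, where 3.53 % of all probes were lower, and they came from 20 of the 55 hairpins. Every P173 array lay below every F91 array in 34 of the 109 arms and above in 1 (8.77 % and 9.67 % of all probes). Of the 109, 66 were not above background at either age, 29 were above it at F91 alone and 14 at both ages, and 9 of these 14 were lower. Of the 66, 1 was called lower, miR-758-3p, at 0 units on the P173 arrays and 4, 3 and 6 units at F91. The median log2 change of the 109 was -1.46, against 0.01 over all probes. Since 66 of the 109 were not above background at either age, this median rests largely on values under 32 units. It does not give the size of a fall across the cluster.

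Near the start of the list lie miR-493, miR-127 and miR-432. miR-432 read 24, 13 and 34 units at P173 and 783, 951 and 901 units at F91 (a fall of 39.7-fold, log2 change -5.31 ± 0.42 SE, adjusted p = 4.39e-06). miR-127 read 96, 121 and 199 units at P173 and 1340, 1312 and 1799 units at F91 (11.1-fold, log2 change -3.47 ± 0.33 SE, adjusted p = 2.13e-05). miR-493-5p read 22, 5 and 16 units at P173 and 366, 439 and 287 units at F91 (at least 11.2-fold, adjusted p = 3.79e-05). For each of them the 3 fetal hearts were alike and the 3 lamb hearts were an order of magnitude lower.

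The middle of the list gave the same picture. miR-380-3p read 20, 12 and 35 units at P173 and 523, 607 and 525 units at F91 (26.9-fold, log2 change -4.75 ± 0.39 SE, adjusted p = 6.08e-06). miR-411a-3p read 35, 29 and 36 units at P173 and 669, 650 and 371 units at F91 (16.4-fold, adjusted p = 7.74e-06). miR-487b-3p read 31, 38 and 34 units at P173 and 574, 476 and 311 units at F91 (12.8-fold, adjusted p = 7.1e-05). The near-identical miR-329a-3p and miR-329b-3p, whose probes can share their targets, fell by 9.25-fold and 9.44-fold (adjusted p = 3.89e-05 and 3.79e-05). Toward the far end, miR-409-3p read 17, 14 and 37 units at P173 and averaged 247 ± 104 units at F91 (SD, n = 3, 11.3-fold, adjusted p = 0.000629), and miR-410 read 1, 0 and 3 units at P173 and 51, 47 and 41 units at F91 (at least 1.45-fold, adjusted p = 0.00148).

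The other 88 arms were not called. miR-494-3p read 593, 919 and 350 units at P173 and 105, 474 and 1547 units at F91, with the ages overlapping (adjusted p = 0.846). Of the miR-376 hairpins, miR-376c-3p read 142, 45 and 68 units at P173 and 333, 87 and 106 units at F91 (adjusted p = 0.412), and miR-376e-3p read 115, 18 and 58 units at P173 and 445, 203 and 97 units at F91 (adjusted p = 0.0846). In miR-379 both arms fell, 3.78-fold for miR-379-5p (adjusted p = 0.0276) and at least 3.84-fold for miR-379-3p (adjusted p = 0.00158), and neither was called under the spike scaling (0.426 and 0.0643).

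The largest fall by the naming rule was on a variant probe of this cluster, hsa-miR-485-3p_R-4, at 0, 3 and 38 units at P173 and 83, 134 and 107 units at F91 (log2 change -5.54, adjusted p = 0.0308), with a fitted fold of 46.6. That fold rested on single lamb arrays, at 9.76 without P173 replicate 1 and 191 without P173 replicate 3. The call was lost without F91 replicate 2 (0.106) or 3 (0.0835), P5 replicate 1 (0.0537) or 2 (0.053) or P173 replicate 2 (0.0863). Of the 43 arms above background at 1 age or both, 29 were above it at F91 alone, so that this filter favours falls. The 3.53 % of all 3091 probes that were lower is not a like comparison, because 1881 of them were not above background at either age. Among the 812 probes that averaged 100 units or more at 1 age or both, 10.7 % were lower, under a different filter. Of the 43 arms, 20 were lower, and 18 to 22 when 1 array was left out. Of these 20, 11 were above background at F91 alone and 9 at both ages. Scaling on the spikes gave 13 lower arms of the 43, and the 6 arrays alone gave 12. The 7 that the spike scaling took away were both arms of miR-379, miR-433-3p (adjusted p = 0.13), miR-382-5p (0.0774), miR-485-3p (0.0608), miR-154a-3p (0.0977) and miR-323c (0.236). Single calls were lost without 1 array for miR-323c (F91 replicates 2 and 3, P173 replicates 1 and 2, highest adjusted p = 0.115) and miR-379-5p (F91 replicates 1 and 2, P173 replicates 2 and 3, highest adjusted p = 0.106).

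**Figure D3:**
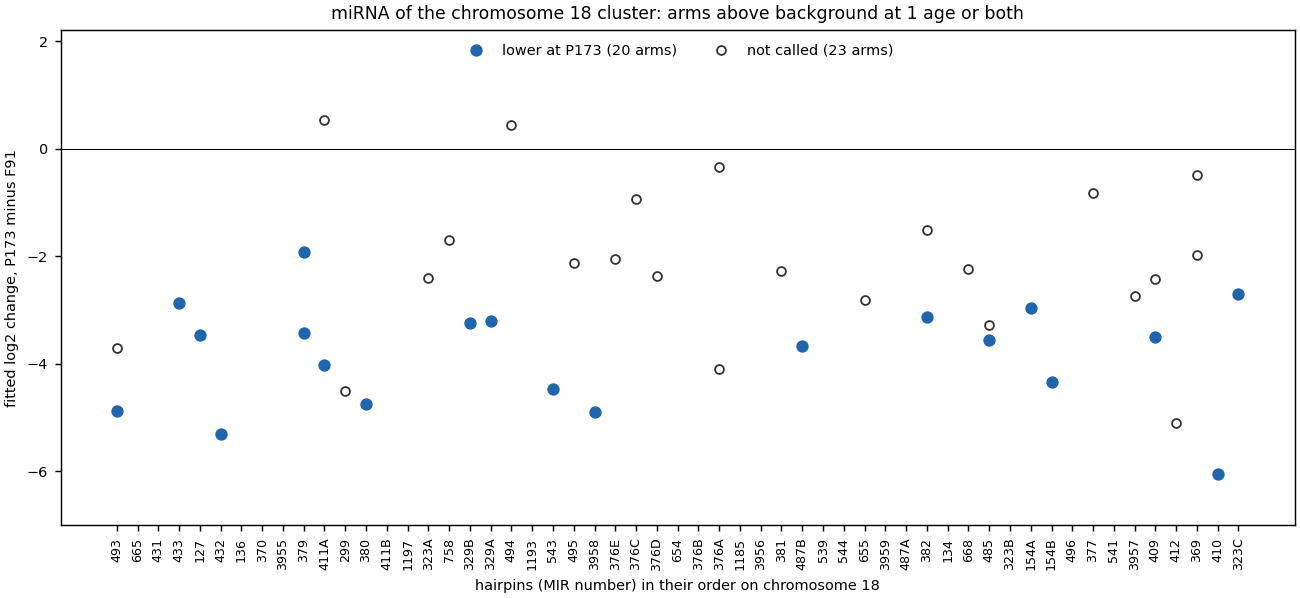
Fitted log2 change (P173 minus F91) of the 43 arms above background at 1 age or both, with the 55 hairpins in their order on chromosome 18 along the horizontal axis. The 20 lower arms (filled) ran from miR-493-5p at the first hairpin to miR-323c at the last, and 29 of the 43 arms are drawn only through their level at F91.

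The miR-15 family went both ways. Its members share the seed AGCAGCA, and in mice they hold back the division of cardiomyocytes after birth. miR-15b read 321, 193 and 302 units at P173 and 3190, 5880 and 4318 units at F91, a fall of 16.3-fold (log2 change -4.03 ± 0.31 SE, adjusted p = 4.32e-06). miR-16b read 5379, 2595 and 5690 units at P173 and 11126, 10075 and 10343 units at F91 (2.44-fold, adjusted p = 0.0126). Both fell, and neither overlapped between the ages. miR-15a overlapped between ages, at 177, 47 and 107 units at P173 and 189, 50 and 16 units at F91 (adjusted p = 0.633).

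The other cluster of the family rose from a low level. The miR-195 variant read 71, 21 and 28 units at P173 and 2, 9 and 4 units at F91 (at least 1.09-fold, adjusted p = 0.0158). miR-497 read 29, 35 and 28 units at P173 and 5, 13 and 2 units at F91 (adjusted p = 0.0406, with no fold above 1 against 32 units). The anonymous probe PC-5p-9731_453, which shares 20 bases with the miR-195 variant and is not counted as a separate miRNA, read 101, 37 and 51 units at P173 and 10, 5 and 8 units at F91 (adjusted p = 0.00771). Of the 22 probes with the seed, 3 were higher and 7 lower, with none higher without P173 replicate 1 and 3 lower under the spike scaling.

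The call of miR-15b held in all 12 omissions. That of the miR-195 variant was lost without P173 replicate 1 (adjusted p = 0.0969) and that of PC-5p-9731_453 too (0.0513), while miR-497 lost its call in 10 of 12, all but F91 replicate 2 and F140 replicate 1 (highest adjusted p = 0.128, without F91 replicate 3). Under the spike scaling miR-16b was not called (adjusted p = 0.725). The 6 members of the cluster of miR-424 and miR-503, some of which have a near seed, had no call and a median log2 change of -0.14.

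**Figure D4:**
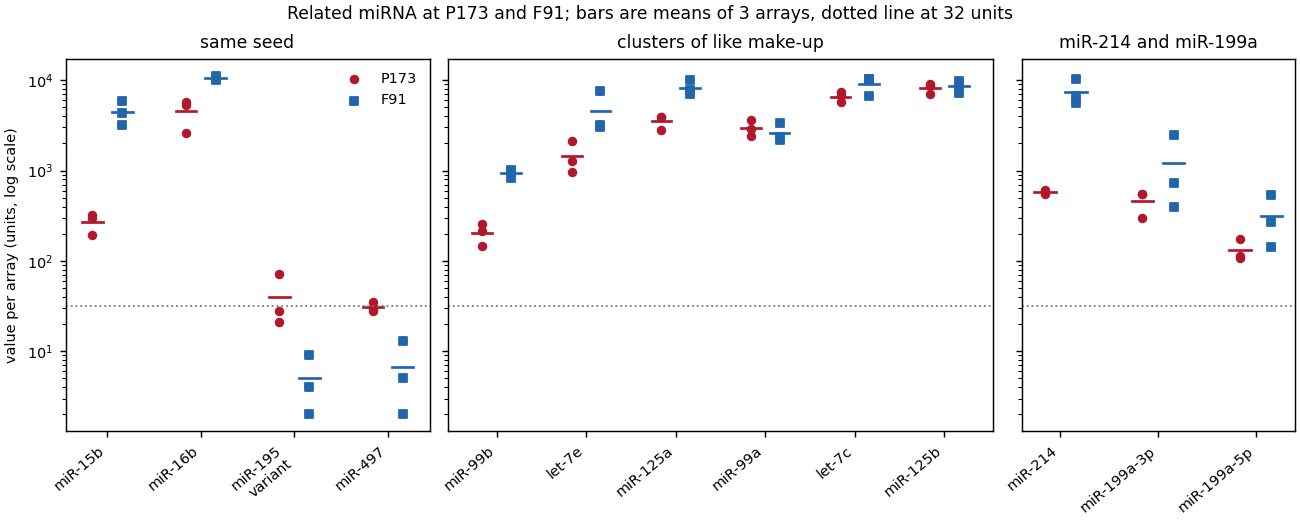
Value on each array (units, log axis) of miRNA of the AGCAGCA seed (left), of the miR-99b and miR-99a clusters (middle) and of miR-214 with both arms of miR-199a (right), with P173 in red circles left of F91 in blue squares, bars for the mean of 3 arrays and a dotted line at 32 units. miR-15b and miR-214 stood far below their F91 values at P173, while the arrays of miR-99a, let-7c and miR-125b overlapped between the ages.

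miR-214 fell, and neither arm of miR-199a was called. Both are cut from the antisense transcript DNM3OS, which is known from mice and humans and is active in fibroblasts and other connective tissue cells. miR-214 read 546, 578 and 603 units at P173 and 5539, 6658 and 10228 units at F91 (12.6-fold, log2 change -3.65 ± 0.31 SE, adjusted p = 7.74e-06). miR-199a-3p read 544, 301 and 553 units at P173 and 2492, 728 and 399 units at F91, and miR-199a-5p read 107, 174 and 112 units at P173 and 533, 270 and 142 units at F91. Both arms of miR-199a overlapped between the ages (adjusted p = 0.388 and 0.208), though miR-199a-5p was called lower without F91 replicate 3 (0.0431), and the difference between them and miR-214 was not tested. miR-21, the fourth member of the fibroblast list, was not called either (adjusted p = 0.682). The 4 summed to 1143 to 1483 units at P173 and 7730 to 10816 units at F91, where most of each sum was miR-214.

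All 3 measured members of the miR-181 family fell, with a median log2 change of -2.03. miR-181b read 111, 123 and 171 units at P173 and 1015, 873 and 1089 units at F91 (7.44-fold, log2 change -2.90 ± 0.33 SE, adjusted p = 8.21e-05). miR-181a, known for its part in lymphocyte development in mice, read 1369, 1957 and 1453 units at P173 and 4223, 6567 and 8635 units at F91 (3.95-fold, adjusted p = 0.000585). miR-181c read 732, 917 and 716 units at P173 and 2632, 3370 and 3701 units at F91 (4.09-fold, adjusted p = 0.000163). No lamb heart reached a fetal one. Of the 9 probes with the seed ACAUUCA, 5 were lower (2 under the spike scaling). Under the spike scaling miR-181a (adjusted p = 0.189) and miR-181c (0.165) were not called, and miR-181b was.

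In miR-17-92, a cluster known to favour cell division, and in its paralogs, miR-92a and miR-25 fell, and of the others only miR-93 passed. miR-92a read 867, 482 and 1083 units at P173 and 3236, 4430 and 3530 units at F91 (4.82-fold, log2 change -2.27 ± 0.32 SE, adjusted p = 0.000512). miR-25, of the miR-106b-25 paralog, read 1038, 1031 and 1116 units at P173 and 3423, 3854 and 3672 units at F91 (3.44-fold, adjusted p = 0.000247), and its longer probe whose sequence is shown above read 625, 419 and 681 units at P173 and 2387, 2010 and 1489 units at F91 (3.42-fold, adjusted p = 0.000973). miR-93 read 81, 55 and 88 units at P173 and 356, 273 and 150 units at F91 (3.33-fold, adjusted p = 0.0118). Of the 6 probes with the seed AUUGCAC of miR-92a, 4 were lower (none under the spike scaling). miR-363, another paralog, was not called (log2 change -4.73), but was called lower without P173 replicate 2 (adjusted p = 0.0219) or 3 (0.0127).

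The members with the seed of miR-17 other than miR-93 overlapped or missed the threshold. miR-17 read 137, 123 and 210 units at P173 and 488, 268 and 207 units at F91 (1.97-fold lower, adjusted p = 0.193), and miR-20b was 2.85-fold lower (adjusted p = 0.0568, and 0.0314 without P173 replicate 3). miR-18a and miR-19a were at 6 units or less on the 6 arrays. miR-19b had a higher mean at P173 without a call, at 40, 41 and 34 units against 28, 12 and 16 units at F91 (adjusted p = 0.258). In all, 1 of 6 members of the cluster and 2 of 7 paralogs were lower. miR-92a, miR-25 and miR-93 were not called under the spike scaling (adjusted p = 0.164, 0.298 and 0.455).

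The cluster of miR-99b, let-7e and miR-125a fell, while the miRNA of its sister clusters were not called. miR-99b, on the probe named for the list, read 146, 217 and 255 units at P173 and 837, 1009 and 982 units at F91 (4.68-fold, log2 change -2.23 ± 0.29 SE, adjusted p = 0.000247). The probe whose sequence is shown above gave a log2 change of -2.28 (adjusted p = 0.000103). let-7e read 1289, 952 and 2134 units at P173 and 7577, 3200 and 3063 units at F91 (3.05-fold, adjusted p = 0.0256). miR-125a read 2794, 3905 and 3866 units at P173 and 6952, 7710 and 10150 units at F91 (2.35-fold, adjusted p = 0.00931).

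Their closest relatives differ from them by a few bases and come from other clusters. miR-99a read 2895, 2420 and 3646 units at P173 and 3378, 2333 and 2198 units at F91 (log2 change 0.19 ± 0.27 SE, adjusted p = 0.801). let-7c read 7330, 5748 and 6719 units at P173 and 10414, 10391 and 6664 units at F91 (-0.45 ± 0.24, adjusted p = 0.354). miR-125b read 6957, 8602 and 9080 units at P173 and 7304, 8447 and 9889 units at F91 (-0.06 ± 0.23, adjusted p = 0.943). Each relative overlapped between the ages, whereas the 3 miRNA of the miR-99b cluster did not, and the difference between the clusters was not tested. The call of let-7e was lost without F91 replicate 1 (adjusted p = 0.0642) or P173 replicate 1 (0.0991) or 2 (0.116). Under the spike scaling miR-99b (0.109), let-7e (0.504) and miR-125a (0.707) were not called.

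Smaller groups fell as well. miR-130a read 235, 112 and 161 units at P173 and 1752, 843 and 865 units at F91 (6.70-fold, log2 change -2.74 ± 0.39 SE, adjusted p = 0.000526), and miR-130b read 4, 0 and 10 units at P173 and 89, 112 and 60 units at F91 (at least 2.64-fold, adjusted p = 0.0108). The related miR-301a and miR-301b were not above background at either age. miR-130b lost its call without F91 replicate 2 (adjusted p = 0.0548), and miR-130a under the spike scaling (0.0836).

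miR-204 and miR-211, which share the seed UCCCUUU and lie in introns of TRPM3 and TRPM1, were both lower. miR-204 read 42, 33 and 63 units at P173 and 355, 177 and 99 units at F91 (4.14-fold, adjusted p = 0.0258), and miR-211 read 68, 30 and 79 units at P173 and 337, 228 and 115 units at F91 (3.79-fold, adjusted p = 0.0296). Their sequences are nearly alike, so that their probes may share targets. Both lost their calls without F91 replicate 1 or 2 or P173 replicate 1 or 2 (highest adjusted p = 0.0934 for miR-204 and 0.114 for miR-211), and under the spike scaling (0.335 and 0.425).

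Outside the lists, and chosen after their values were seen, miR-342, miR-3431, miR-224 and miR-140 fell on more than 1 probe each. miR-342, in an intron of EVL, read 1912, 1571 and 1834 units at P173 and 6126, 7314 and 5457 units at F91 (3.54-fold, adjusted p = 0.000159). miR-3431, known from cattle, read 89, 72 and 84 units at P173 and 586, 533 and 427 units at F91 (6.27-fold, adjusted p = 0.000309), and 6 of 7 probes with its seed CUCAGUC were lower (none under the spike scaling). miR-224 read 186, 171 and 260 units at P173 and 1479, 853 and 688 units at F91 (4.72-fold, adjusted p = 0.00172). miR-140, of the WWP2 gene and known for its part in cartilage, read 948, 635 and 792 units at P173 and 1806, 1671 and 2081 units at F91 (2.36-fold, adjusted p = 0.0159). None of these 4 was called under the spike scaling (adjusted p = 0.279, 0.0836, 0.165 and 0.743), and miR-140 lost its call without P173 replicate 2 (0.0638).

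Some families of many members gave few calls. Of the 9 let-7 members, 1 was lower (let-7e) and the other 8 had log2 changes of -0.58 (let-7a) to 0.32 (let-7g), with a list median of -0.45, which turned to 0.32 under the spike scaling. None of the 6 miR-30 members was called (miR-30b was without F91 replicate 1, adjusted p = 0.0214), with a median of -0.07 (0.70 under the spike scaling), and none of the 7 miR-378 members, with a median of 0.32. miR-98 shows how much 1 array can matter here: it read 545, 276 and 650 units at P173 and 4229, 288 and 212 units at F91. In miR-221 and miR-222 the ages overlapped (adjusted p = 1.0 and 0.94). In the miR-320 family 1 of 5 members was lower, miR-320a at 351, 412 and 408 units at P173 and 724, 969 and 839 units at F91 (2.15-fold, adjusted p = 0.0229), and the other 4 had all P173 arrays below all F91 arrays without a call. miR-320a lost its call without F91 replicate 2 (adjusted p = 0.07) or P173 replicate 1 (0.0794), and under the spike scaling (0.817).

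The listed miRNA of endothelium, smooth muscle and other tissues gave no call. miR-126-3p of endothelium read 3963, 3535 and 3903 units at P173 and 4211, 2239 and 923 units at F91 (adjusted p = 0.324), and was called higher without F91 replicate 1 (0.0371), while a variant probe of its opposite arm was called. miR-143 and miR-145 of smooth muscle overlapped between the ages (adjusted p = 0.968 and 0.94), and together they summed to 5753 to 6003 units at P173 and 4718 to 7358 units at F91. The markers of liver (miR-122), brain (miR-124) and pancreas (miR-375) were at 0 to 13 units on the 6 arrays, and miR-9 had no probe. The cardiac miRNA miR-1 and miR-499 read over 200 units on all 6 arrays of tissue labelled as heart. Of the miRNA that the study used as references in its PCR measurements, miR-26b overlapped between ages (adjusted p = 0.416, and 0.023 without F91 replicate 1) and miR-92a fell as given above. Both arms of miR-590, known to favour cardiomyocyte division in rodents, were at 0 on all 6 arrays.

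Probes for 1 miRNA did not always move alike. bta-miR-126-5p was at 12 units or less on the 6 arrays, while a variant probe 3 bases longer at the 5′ end (mmu-miR-126a-5p_L+3) read 817, 736 and 479 units at P173 and 210, 53 and 37 units at F91 (8.86-fold, adjusted p = 0.00573, and 14.9-fold without F91 replicate 1). Of the 67 probes with the seed CUGGACU of miR-378, 2 were higher, and 13 without F91 replicate 1. One of them (ppy-miR-378d_R+4_1ss18AC) read 238, 210 and 355 units at P173 and 64, 56 and 8 units at F91 (8.48-fold, adjusted p = 0.0118, and 4.35-fold without F91 replicate 3), while the exact miR-378 probe read 3533, 3431 and 4557 units at P173 and 2898, 3382 and 4704 units at F91. By contrast, all 3 probes that share 18 bases with miR-15b, all 5 with miR-499 and all 4 with miR-92a were called in 1 direction. Those of miR-499 all lost their calls without F91 replicate 2, F91 replicate 3 or P173 replicate 1 (highest adjusted p = 0.156), and those of miR-92a under the spike scaling (0.164 to 0.258).

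Entries that overlap other small RNA rose in 5 of 13 cases and fell in none, where 3.24 % of all probes were higher, and their median log2 change was 1.27. Without P173 replicate 2, 3 of them were higher. These entries carry miRNA names, but in humans miR-7641 overlaps 5S ribosomal RNA and miR-4454 and miR-5100 overlap transfer RNA. miR-4454 read 1112, 835 and 539 units at P173 and 158, 131 and 218 units at F91 (4.80-fold, adjusted p = 0.00141). miR-1386 read 263, 293 and 205 units at P173 and 80, 39 and 24 units at F91 (5.94-fold, adjusted p = 0.00194). miR-7977 read 848, 801 and 835 units at P173 and 241, 244 and 419 units at F91 (2.84-fold, adjusted p = 0.00868).

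mir-7641-1-p3 read 6683, 12810 and 6603 units at P173 and 1848, 2645 and 3122 units at F91 (3.33-fold, adjusted p = 0.01), and its call was lost without P173 replicate 2 (0.0575). The variant of mir-7641-1-p5 read 20916, 34907 and 21041 units at P173 and 6953, 10864 and 14585 units at F91 (2.41-fold, adjusted p = 0.0348), with the call lost in 8 of 12 omissions, which were F91 replicates 1 and 2, all P5 replicates and all P173 replicates (highest adjusted p = 0.153, without P173 replicate 2). The array's 12 control probes for 5S ribosomal RNA did not rise together: their log2 differences, P173 minus F91, ran from -1.89 to 0.69. The brightest, bta-5S-b6, read 22333, 34116 and 22046 units at P173 and 10445, 16227 and 28662 units at F91, with the ages overlapping.

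Of the 907 anonymous probes, which stand for sequences predicted as miRNA and carry only a number, 11 were higher and 2 lower, which is 1.21 % and 0.221 %, against 3.24 % and 3.53 % of all probes. The 6 that follow were chosen after their values were seen, because they were lower at both fetal ages than at both postnatal ages or rose by the most. The files give them no gene or role. Their target sequences, with bases 2 to 8 in capitals, have no more than 8 bases in a row in common with any named probe.
PC-5p-105598_28: aACUGCUAauucuaugccca
PC-3p-27869_130: cUAUGCCCccaugucuaa
PC-5p-53292_62: cAGACCAAgagccuacug
PC-3p-29784_121: uAUAGCUUcuuccuugac
PC-5p-13703_301: cAGGGAAUuguuuaaguagaacuucagc
PC-5p-51939_63: cUAAACCCcgccuguuua

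PC-5p-105598_28 read 1728, 3454 and 2197 units at P173 and 239, 313 and 377 units at F91 (7.74-fold, log2 change 2.95 ± 0.36 SE, adjusted p = 0.000122). PC-3p-27869_130 read 545, 911 and 908 units at P173 and 56, 52 and 156 units at F91 (9.96-fold, adjusted p = 0.000424). The 2 sequences share a run of 8 bases. PC-5p-53292_62 read 439, 1028 and 571 units at P173 and 58, 56 and 106 units at F91 (9.07-fold, adjusted p = 0.00361). PC-3p-29784_121 read 5901, 10933 and 6827 units at P173 and 1449, 1034 and 2688 units at F91 (4.78-fold, adjusted p = 0.00191). PC-5p-13703_301 read 3652, 6057 and 2843 units at P173 and averaged 1004 ± 329 units at F91 (SD, n = 3, 4.13-fold, adjusted p = 0.00364). P173 replicate 2 was the highest lamb array for all 5. PC-5p-51939_63 read 114, 193 and 173 units at P173 and 23, 66 and 40 units at F91 (3.96-fold, adjusted p = 0.0229), and lost its call without F91 replicate 1 (0.0565) or P173 replicate 2 (0.0827) or 3 (0.068).

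The means at the other ages place these changes in time. They come from the same fit and are given without a test, in the order F91, F140, P5 and P173. Of the 109 lower probes, 91 had both means between those of P173 and F91, and 52 fell at every step. Of the 21 lower arms of chromosome 18, 19 lay between and 15 fell at every step. miR-432, for one, averaged 878, 274, 226 and 23.7 units, and miR-214 averaged 7475, 1988, 2012 and 576 units. The rises were less even: of the 100 higher probes, 58 had both means between the ends, 25 rose at every step and 25 had an F140 mean above both ends.

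miR-1 averaged 1285, 16180, 7513 and 9346 units, so that its highest mean was at F140, and the miR-208b variant averaged 3.33, 907, 14.0 and 86.7 units. The slope of log2 values with GC content was -0.465, -0.332 and -0.174 per 10 % GC on the F140 arrays, so that probes of low GC content read relatively higher there. It was -0.168, 0.166 and 0.548 at F91 and 0.04, 0.267 and 0.007 at P173. miR-1 has 27.3 % GC, and the part of this trend in the F140 means was not tested. miR-29a averaged 12.3, 46.3, 61.3 and 355 units and miR-193b averaged 101, 78.7, 71.7 and 521 units, so that for both the gap between P5 and P173 was the widest. miR-486 averaged 623, 1371, 1975 and 4243 units, with a step at each age. PC-5p-13703_301 averaged 1004, 663, 4848 and 4184 units and PC-5p-51939_63 averaged 43.0, 22.7, 180 and 160 units, and both were lower at the fetal ages than at the postnatal ages. PC-5p-105598_28 averaged 310, 451, 1826 and 2460 units.

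**Figure D5:**
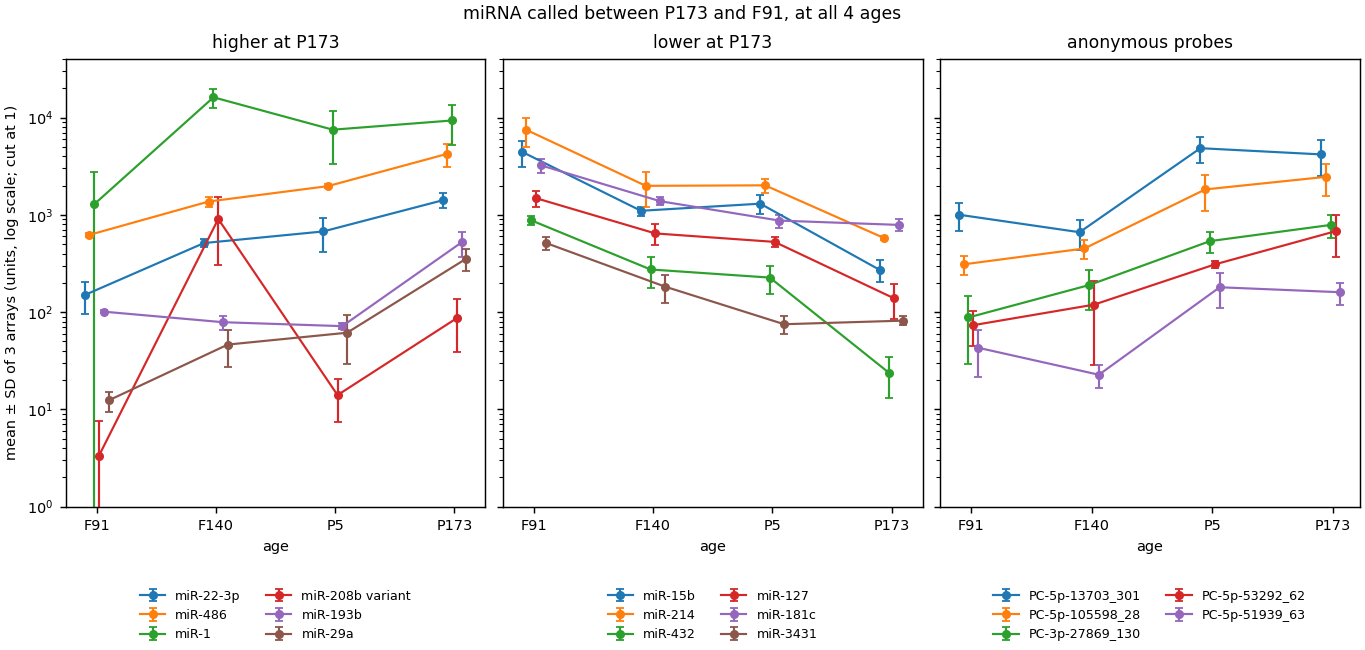
Mean ± SD of 3 arrays (units, log axis, cut at 1) at F91, F140, P5 and P173 for miRNA higher at P173 (left), lower at P173 (middle) and 5 anonymous probes (right). miR-432 and miR-127 fell at every step, miR-1 and the miR-208b variant had their highest mean at F140, and miR-29a and miR-193b were highest at P173.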

How the data were processed

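Total RNA from the left ventricle was hybridised to a custom single-colour (Cy3) miRNA array, and 12 arrays were used here. The authors deposited normalised intensities as whole numbers, treated here as a score on a linear scale, and the same intensities with decimals. Per the methods they were made in CLCBIO Genomics Workbench, while the name of the deposited table points to lowess, and which of them set the scale is not given in the sources used here. The deposited scanner intensities per spot (10044 spots an array, 3 to 6 a probe) were used in an alternative. The table holds 3146 rows, of which 55 controls were left out and 3091 were tested. Arrays carry no read depth, and the number of 3 arrays an age limits the precision. The labels do not say that RNA was extracted separately in each replicate, so that p-values measure the spread between these samples.

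Log2(value + 0.1) was fitted with 1 mean per age over all 12 arrays in limma 3.58.1 (R 4.3.3, eBayes with a trend), and the contrast P173 minus F91 was adjusted over 3091 probes. Tables and figures were made in Python 3.11.15 with pandas 2.3.3, scipy 1.17.1 and matplotlib 3.10.9. The fit was tested on simulated data. An age with all 3 arrays under 32 units was taken as not above background. Named probes were the 15 largest rises and the 15 largest falls among probes that are not anonymous, passed the test, averaged 100 units or more at 1 age and did not overlap, with probes that share 18 bases counted once, and the members of miRNA lists and the PCR references. The members and lists were chosen with earlier results of these data known. The alternatives were another pseudocount, floors and filters, other normalisations, arrays left out, a replicate block, a GC correction and other forms of the test.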

Additional observations from a re-analysis of the deposited data

How the results depend on the processing

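The main test called 209 probes (100 higher, 109 lower). With the 6 arrays of P173 and F91 alone it called 91 (35 higher, 56 lower), and 133 (61 higher, 72 lower) with the GC trend taken out as well. Without a trend in eBayes it called 127 (53 higher, 74 lower). Leaving out the dim pair, P173 replicate 2 with F91 replicate 3, gave 139 (55 higher, 84 lower), and scaling on the spike controls gave 159 (132 higher, 27 lower). The scaling on spikes, the removal of the dim pair and the 6 arrays with the GC trend taken out were chosen after seeing the data. Leaving out 1 array at a time gave 148 to 280 probes (57 to 149 higher, 84 to 131 lower), with the fewest rises without P173 replicate 1. The fit on 6 arrays has fewer samples for the spread, and the cause of the other differences was not tested. A pseudocount of 1, a floor at 32 units, a filter on dim probes, the table with decimals, scanner intensities, quantile normalisation, median centring, the GC trend taken out over 12 arrays and no moderation gave 168 to 283 probes. Of the 209 main calls, the floor at 32 units kept 144 and no moderation kept 158. No called probe changed direction in any alternative.

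The replicate numbers of P173 and F91 did not pair the samples: the deviations of same-numbered arrays correlated at -0.094, -0.081 and -0.095. With the replicate number as a block in limma, the 6 arrays alone called 0 probes, with 317 at an unadjusted p under 0.05 (563 in the main test), and all 12 arrays called 198. The block with the GC trend taken out on the 6 arrays called 140 (68 higher, 72 lower). Slide and scan as a block were not run, because the files used here give neither. Levels under 32 units limit what could be seen: 1881 of 3091 probes were not above background at either age.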
